A study of Mus musculus with 6 samples.

Results

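The genes described here are the processed pseudogenes that carried reads in cultured mouse hepatocytes. They were chosen as gene models of the biotype processed_pseudogene with at least 1 FPKM (a read count scaled for gene length and library size, the deposited unit) in 3 or more of 6 libraries. Of 9124 processed pseudogene models in the table of 54118 gene models, 2513 had at least 1 read and 585 met this rule. Primary hepatocytes of C57BL/6 mice, obtained by collagenase perfusion of the liver, were infected overnight with an adenovirus that encodes beta-galactosidase (beta-Gal, the control, 3 libraries) or with one that encodes HuR (3 libraries). HuR, the product of Elavl1, is an RNA-binding protein that attaches to AU-rich stretches of transcripts, so the design asks how the RNA of these cells differs when HuR is raised. Both groups carry an adenovirus and a foreign or surplus protein, and no uninfected cells were analysed here. Separate cultures or mice behind the 3 samples of each group are not stated in the labels. The p-values therefore reflect sample-to-sample spread alone, which may be technical.

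A processed pseudogene, or retrocopy, arises when a spliced mRNA is copied back into DNA by the reverse transcriptase of a LINE-1 element and inserted elsewhere in the genome. It lacks introns and usually a promoter of its own, and it collects mutations over time, so that young copies differ from the parent coding sequence at few positions. Genes that are strongly transcribed in the germ line, above all those for ribosomal proteins, glycolytic enzymes and other housekeeping products, have left many such copies. Reads from a parent mRNA can fall on a copy that has the same sequence. The sources used here give neither the read length nor the treatment of reads with several possible origins. A value at a near-identical copy therefore cannot be told apart from reads of its parent or of another copy.

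Stretches of 5 pseudogenes are printed beside the coding sequence of the parent, because the results below turn on how far a copy has diverged. All come from the GENCODE M21 transcripts on GRCm38, are written 5′ to 3′ and carry in capitals the bases at which copy and parent differ. Each stretch of 120 bases was the first gap-free one inside the parent coding sequence whose share of mismatches was closest to that of the best aligned segment. Gaps were left out of that share, so a stretch can look closer to the parent than the copy is. Over all aligned bases, with gaps counted as differences, identity was 95.4% for Gm11843, 96.3% for Gm6266 and 99.05% for Gm7329. The stretch of Gm10052 is at chr9:123690073-123690192 on the minus strand and is identical to bases 1 to 120 of the coding sequence of Hnrnpa1, a splicing regulator, so 1 line stands for both. Gm7329 at chr1:65095244-65095363 on the plus strand has 1 difference from bases 1524 to 1643 of Me1, the cytosolic malic enzyme that supplies NADPH. Gm11843 at chr4:12131632-12131751 on the minus strand has 3 differences from bases 235 to 354 of Ube2v2, an inactive ubiquitin-conjugating enzyme variant. Gm6266 at chr6:146782521-146782640 on the plus strand has 3 differences from bases 119 to 238 of Rps2, and Rps19-ps3 at chr4:147822005-147822124 on the minus strand has 4 from bases 91 to 210 of Rps19. Rps2 and Rps19 encode proteins of the small ribosomal subunit.
Gm10052 and Hnrnpa1: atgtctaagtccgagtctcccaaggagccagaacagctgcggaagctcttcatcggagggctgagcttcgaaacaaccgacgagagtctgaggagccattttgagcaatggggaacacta
Gm7329: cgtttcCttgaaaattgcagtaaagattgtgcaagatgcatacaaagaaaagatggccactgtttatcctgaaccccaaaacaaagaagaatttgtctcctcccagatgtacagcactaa
Me1: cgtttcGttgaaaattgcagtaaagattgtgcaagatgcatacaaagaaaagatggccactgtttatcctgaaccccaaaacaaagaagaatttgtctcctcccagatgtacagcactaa
Gm11843: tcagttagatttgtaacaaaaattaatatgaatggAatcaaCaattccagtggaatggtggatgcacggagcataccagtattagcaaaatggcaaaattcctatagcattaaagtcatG
Ube2v2: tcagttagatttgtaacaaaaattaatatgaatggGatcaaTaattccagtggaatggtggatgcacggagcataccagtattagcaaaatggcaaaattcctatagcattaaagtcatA
Gm6266: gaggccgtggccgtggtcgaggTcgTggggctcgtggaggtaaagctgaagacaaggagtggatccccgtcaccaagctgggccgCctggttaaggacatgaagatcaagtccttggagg
Rps2: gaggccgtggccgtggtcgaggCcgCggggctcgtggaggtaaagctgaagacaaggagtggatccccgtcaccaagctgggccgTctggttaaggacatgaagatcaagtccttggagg
Rps19-ps3: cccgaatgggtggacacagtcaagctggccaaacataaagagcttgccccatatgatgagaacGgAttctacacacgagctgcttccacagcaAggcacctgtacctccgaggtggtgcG
Rps19: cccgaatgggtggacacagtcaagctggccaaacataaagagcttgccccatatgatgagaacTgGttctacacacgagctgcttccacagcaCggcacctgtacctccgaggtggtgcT

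The libraries held 15413306 to 17108184 reads. Elavl1 stood at 5.45, 5.91 and 5.62 FPKM with beta-Gal and 2434, 1662 and 1709 FPKM with HuR, so the labels and the forced expression match in every library. All 8 hepatocyte markers were at 1 FPKM or more. Summed Kupffer cell and macrophage markers, 2 of 6 of which reached 1 FPKM, were at 18.0 to 21.7 FPKM in beta-Gal and 31.7 to 40.3 FPKM in HuR, and the part of these cells in the values below was not tested. Stellate and lymphocyte markers stayed under 1 FPKM in the mean over libraries, as did 4 of 5 endothelial and 3 of 4 cholangiocyte markers.

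Most of the 585 pseudogenes lay at low levels. The mean over the 6 libraries ran from 0.697 to 400.2 FPKM with a median of 3.39. A total of 347 lay under 5 FPKM, 163 reached 10 and 15 reached 100. The models are short, with a median of 516 bases against 4196 for the tested protein-coding genes, so that the median pseudogene rested on 35.8 reads per library and the median protein-coding gene on 560. They are spread over all autosomes and the X chromosome, from 9 on chromosome 18 to 46 each on chromosomes 2 and 5. Just inside the threshold were Gm7308, Gm15790 and Gm12250, whose third-highest library stood at 1.004, 1.005 and 1.007 FPKM. Just outside were Gm43442, Gm6451 and Gm3379 at 0.992, 0.984 and 0.983 FPKM.

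What these pseudogenes shared beyond their level was likeness to the parent. A parent was found for 583 of 585, from the symbol for 116 and from the best match among protein-coding transcripts for 467. For 113 of the 116, the parent in the symbol was also the best sequence match. The parents were 388 genes, and 102 of them had 2 or more copies among the members. Median identity to the parent over the aligned bases was 98.9%, against 87.9% in the 8234 models below the FPKM threshold that have a parent and 93.9% in the 1883 of those with at least 1 read. Identity reached 99% in 48.0% of the members with a parent and in 2.84% of the models below the threshold. Of all 50-base windows in a member, a median of 61.7% occurred unchanged in the parent transcript, against a median of 0 below the threshold. In 64 members the whole model was identical to the parent, and in 35 the identity was under 90%. At low identity the best match may not be the true parent. The parents of the members were also at higher levels, with a median of 41.8 FPKM against 22.2 FPKM for the parents of the models below the threshold. Identity, parent level and the FPKM of the copy go together in these data, and the number of reads at a copy that came from its parent was not measured.

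**Figure D1:**
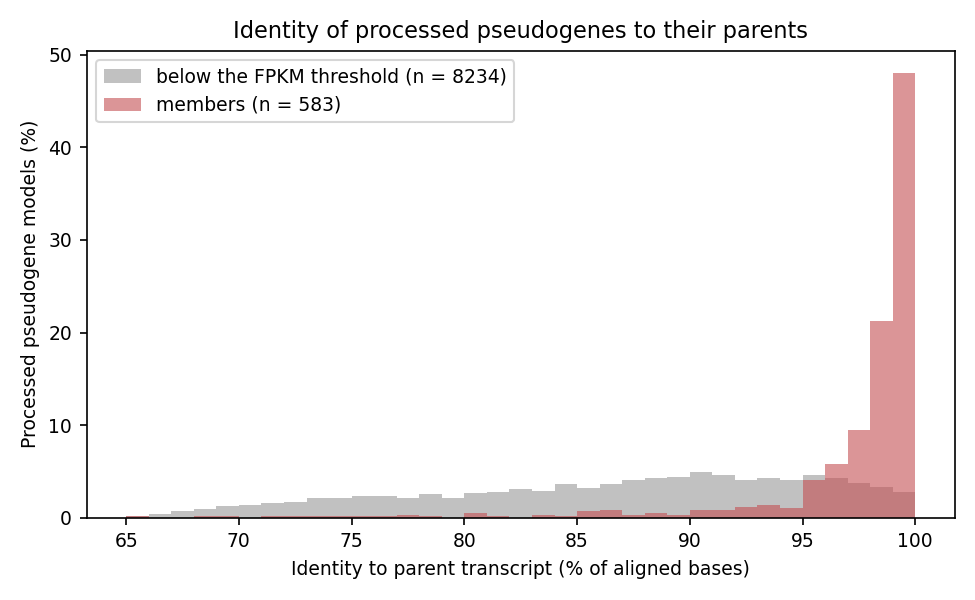
Identity to the parent transcript in percent of aligned bases on the x axis, and the share of processed pseudogene models in percent on the y axis, in bins of 1 percentage point. Red marks the 583 members with a parent and grey the 8234 models below the FPKM threshold. Of the members, 48.0% fall at 99% or above, against 2.84% of the grey models.

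The highest level belonged to Gm10123, a copy of Ppia, the gene for the prolyl isomerase cyclophilin A (chr9:96895658-96896147, plus strand, GRCm38). It stood at 444, 274 and 472 FPKM with beta-Gal and 518, 289 and 404 FPKM with HuR. Over all 490 bases it is identical to Ppia. The groups overlapped and the log2 difference, on the log2(FPKM + 1) scale used throughout, was 0.03 ± 0.27 (SE) with an adjusted p of 0.947. Next came Rpl17-ps10 (chr7:72648757-72649311, minus strand), one of 6 members copied from the large-subunit ribosomal protein gene Rpl17, at 358, 366 and 359 FPKM with beta-Gal and 214, 383 and 426 FPKM with HuR. HuR library 1 was low and the other 5 libraries lay between 358 and 426 FPKM. Gm9794, a copy of Rpl23, stood at 279, 280.2 and 288 FPKM with beta-Gal and 319, 310.2 and 318 FPKM with HuR, with every HuR library above every beta-Gal library. Mpc1-ps, a copy of the mitochondrial pyruvate carrier gene Mpc1, stood at 156, 177 and 162 FPKM with beta-Gal and 136, 125 and 129 FPKM with HuR. Every HuR library was below every beta-Gal library, and the copy fell by 0.34 on the log2 scale. Tpt1-ps3, a copy of the gene for translationally controlled tumour protein, stood at 139.6, 158 and 153 FPKM with beta-Gal and 177, 159.7 and 153 FPKM with HuR, with overlapping groups.

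In FPKM, 77 members lay above their parent. The models of those parents had a median length of 3800 bases against 483 for the members, and 25 of the 77 also had more reads than the parent. Gm11843 averaged 153 FPKM and its parent Ube2v2 0.918 FPKM. In every library the reads at Gm11843 exceeded those at Ube2v2, as 455, 528 and 609 reads with beta-Gal and 2474, 1095 and 1069 with HuR against 138, 152 and 132 reads with beta-Gal and 60, 118 and 54 with HuR.

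Between the groups, 118 of 585 pseudogenes passed the test (limma on log2(FPKM + 1), Benjamini-Hochberg adjusted p under 0.05 over all 11281 gene models tested). This is 20.2% of the members, where 45.5% of all tested gene models and 48.3% of the protein-coding ones passed. Higher in HuR were 80 (13.7%), against 20.7% of all tested, and lower were 38, against 24.8% of all tested. The 2 groups did not overlap for 147 members (25.1%) and for 58.1% of all tested models. The median standard error was 0.154 in the members and 0.0696 in the protein-coding genes, on the log2 scale, so a difference of a given size passed less readily in the members. The median log2 difference was 0.09 in the members and -0.01 over all tested models. Against the mean of the beta-Gal libraries, the median member stood 0.16 higher in HuR library 1, 0.07 in library 2 and 0.06 in library 3. The library size implied by the FPKM of HuR library 1 was 15054745, below its 15902608 reads. In every other library the implied size lay above the reads. The part of this scaling in the medians was not tested. Rescaling every library to the same summed FPKM (TPM) moved the median of all tested models to -0.10 and that of the members to 0.01. The calls then became 49 higher and 58 lower, where 13.7% of all tested models were higher and 33.1% lower.

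How a member met the FPKM rule bears on these counts. A total of 426 were at 1 FPKM or more in all 6 libraries, and of them 56 were called higher and 29 lower. Another 17 passed through the HuR libraries only, of which 16 were called higher, and 7 passed through the beta-Gal libraries only, all of them called lower. These 24 were chosen by their level in 1 group, and their direction is a description. In the remaining 135, 8 were called higher and 2 lower. Most of the changes were small, with a median size of 0.46 among the 118 called. At least a 2-fold change on the log2(FPKM + 1) scale was seen in 15 of the called rises and 4 of the called falls.

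The largest rise was that of Gm15571 (chr12:69141430-69142066, minus strand). It had 0 reads in all 3 beta-Gal libraries and 48, 46 and 60 reads in the HuR libraries, or 5.01, 4.30 and 6.04 FPKM. Set against a floor of 3 reads per library it was at least 17.1-fold higher in HuR. Gm26980, a copy of the histone H3.3 gene H3f3a with 93.5% identity (chr16:22236921-22237315, plus strand), likewise had 0 reads in beta-Gal and 15, 18 and 20 in HuR, at least 5.88-fold higher against the same floor. Its parent differed by -0.08 and did not pass the test (adjusted p = 0.258). Both passed the FPKM rule through HuR only, as did Gm6266, Gm15502, Gm17875, Gm7785 and Gm8696 below, so the direction of all 7 was fixed by how they were chosen.

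Gm6266, a copy of Rps2 (chr6:146782469-146783274, plus strand), stood at 0.149, 0.285 and 0.218 FPKM with beta-Gal and 6.92, 5.39 and 5.97 FPKM with HuR. Every HuR library was far above the beta-Gal libraries, with a log2 difference of 2.54. Rps2 itself differed by 0.22. Gm15502, a copy of the mitochondrial channel gene Vdac1 (chr5:137896752-137896959, minus strand), lies inside Cyp3a13 on the same strand and stood at 0.576, 0.551 and 0.846 FPKM with beta-Gal and 7.03, 8.87 and 6.78 FPKM with HuR. The groups were far apart for Gm15502, at 2.36 on the log2 scale, while its parent Vdac1 (-0.10, adjusted p = 0.104) and its host Cyp3a13 (-0.15, adjusted p = 0.110) did not pass.

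Gm17875 resembles the beta-actin gene Actb at 69.7% of aligned bases (chr9:65364887-65365946, plus strand) and stood at 0.0636, 0 and 0 FPKM with beta-Gal and 2.40, 2.85 and 3.88 FPKM with HuR. It rose by 1.97 while Actb fell by 0.44 (adjusted p = 0.000262). Gm7785, a copy of Zfp330 (chr1:91296045-91296936, plus strand), was at 0.470, 0.129 and 0 FPKM with beta-Gal and 4.24, 2.27 and 2.80 FPKM with HuR. It rose by 1.77 while Zfp330 fell (log2 difference -0.38, adjusted p = 0.00602). Gm8696, a copy of the snoRNP and spliceosome gene Snu13 (chr17:34954328-34954712, minus strand), stood at 0.311, 0 and 0 FPKM with beta-Gal and 2.93, 1.24 and 2.50 FPKM with HuR, without overlap, and rose by 1.52 while Snu13 rose by 0.43.

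Gm11843 (chr4:12131551-12131975, minus strand) was the only one of the 8 largest rises at a high level in both groups. It stood at 64.1, 71.2 and 84.0 FPKM with beta-Gal and 387, 153 and 161 FPKM with HuR. All HuR libraries were above all beta-Gal libraries, but HuR library 1 stood well above the other two. The log2 difference was 1.53 ± 0.35 (SE) with an adjusted p of 0.0115. Its parent Ube2v2 differed by -0.37 and did not pass the test (adjusted p = 0.0537).

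The largest fall was that of Gm7329, a fragment identical to Me1 at 99.05% of aligned bases (chr1:65095227-65095436, plus strand). It stood at 3.14, 4.10 and 2.51 FPKM with beta-Gal and 0.633, 0.283 and 0.611 FPKM with HuR, without overlap, with a log2 difference of -1.49. It met the FPKM rule through the beta-Gal libraries only, which fixed the direction. Me1 also fell, with a log2 difference of -0.81. Gm8116, a near-identical copy of the carnosine methyltransferase gene Carnmt1 (chr9:78820638-78821838, minus strand), stood at 10.8, 8.02 and 10.4 FPKM with beta-Gal and 5.31, 2.38 and 5.13 FPKM with HuR, again without overlap. It fell (log2 difference -1.07), and so did its parent (-0.94, adjusted p = 0.000669). Gm14038, a copy of the zinc finger gene Zfand1 (chr2:134762824-134763630, minus strand), was at 4.30, 5.12 and 5.89 FPKM with beta-Gal and 2.22, 2.14 and 1.91 FPKM with HuR. It fell (log2 difference -0.98), and Zfand1 differed by -0.31 (adjusted p = 0.116). Gm12663, a copy of the proteasome phosphatase gene Ublcp1 (chr11:16635109-16636066, minus strand), had a log2 difference of -0.73 and Ublcp1 one of -0.47 (adjusted p = 0.00138), with 4.001, 5.21 and 4.96 FPKM with beta-Gal and 2.08, 2.92 and 2.34 FPKM with HuR for the copy.

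The other 4 of the 8 largest falls were more diverged copies. Gm12276 resembles the cytochrome c gene Cycs at 81.9% of aligned bases and lies inside Ncor1 on the other strand, 2970 bases after Ttc19 on its own strand (chr11:62331421-62331721, plus strand). It stood at 2.59, 4.19 and 3.12 FPKM with beta-Gal and 1.10, 0.791 and 1.07 FPKM with HuR, without overlap. It fell by 1.10 and the host Ncor1, a nuclear receptor corepressor gene, fell by 0.50, while Cycs rose by 0.21 (adjusted p = 0.0495). Ttc19, a mitochondrial complex III assembly gene, averaged 7.01 FPKM with beta-Gal and 4.17 FPKM with HuR. Gm32983, a copy of Lgalsl inside Lrrc28 (chr7:67593659-67594163, plus strand), was at 6.40, 5.45 and 5.81 FPKM with beta-Gal and 2.10, 2.59 and 2.16 FPKM with HuR. The copy (log2 difference -1.07), its parent (-0.44) and its host (-0.17) all fell. Gm18760, a copy of Cir1 inside the choline dehydrogenase gene Chdh (chr14:30027687-30028351, minus strand), averaged 1.61 ± 0.200 FPKM with beta-Gal against 0.504 ± 0.120 FPKM with HuR (SD, n = 3 each), a log2 difference of -0.80. Neither Cir1 (adjusted p = 0.360) nor Chdh (adjusted p = 0.0743) passed. Rps19-ps3 (chr4:147821777-147822202, minus strand) was at 1.69, 2.15 and 1.10 FPKM with beta-Gal and 0.624, 0.419 and 0.753 FPKM with HuR, a log2 difference of -0.71, while Rps19 rose by 0.30 (adjusted p = 0.00251). Gm18760 and Rps19-ps3 met the FPKM rule through beta-Gal only, so their direction was fixed by how they were chosen.

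**Figure D2:**
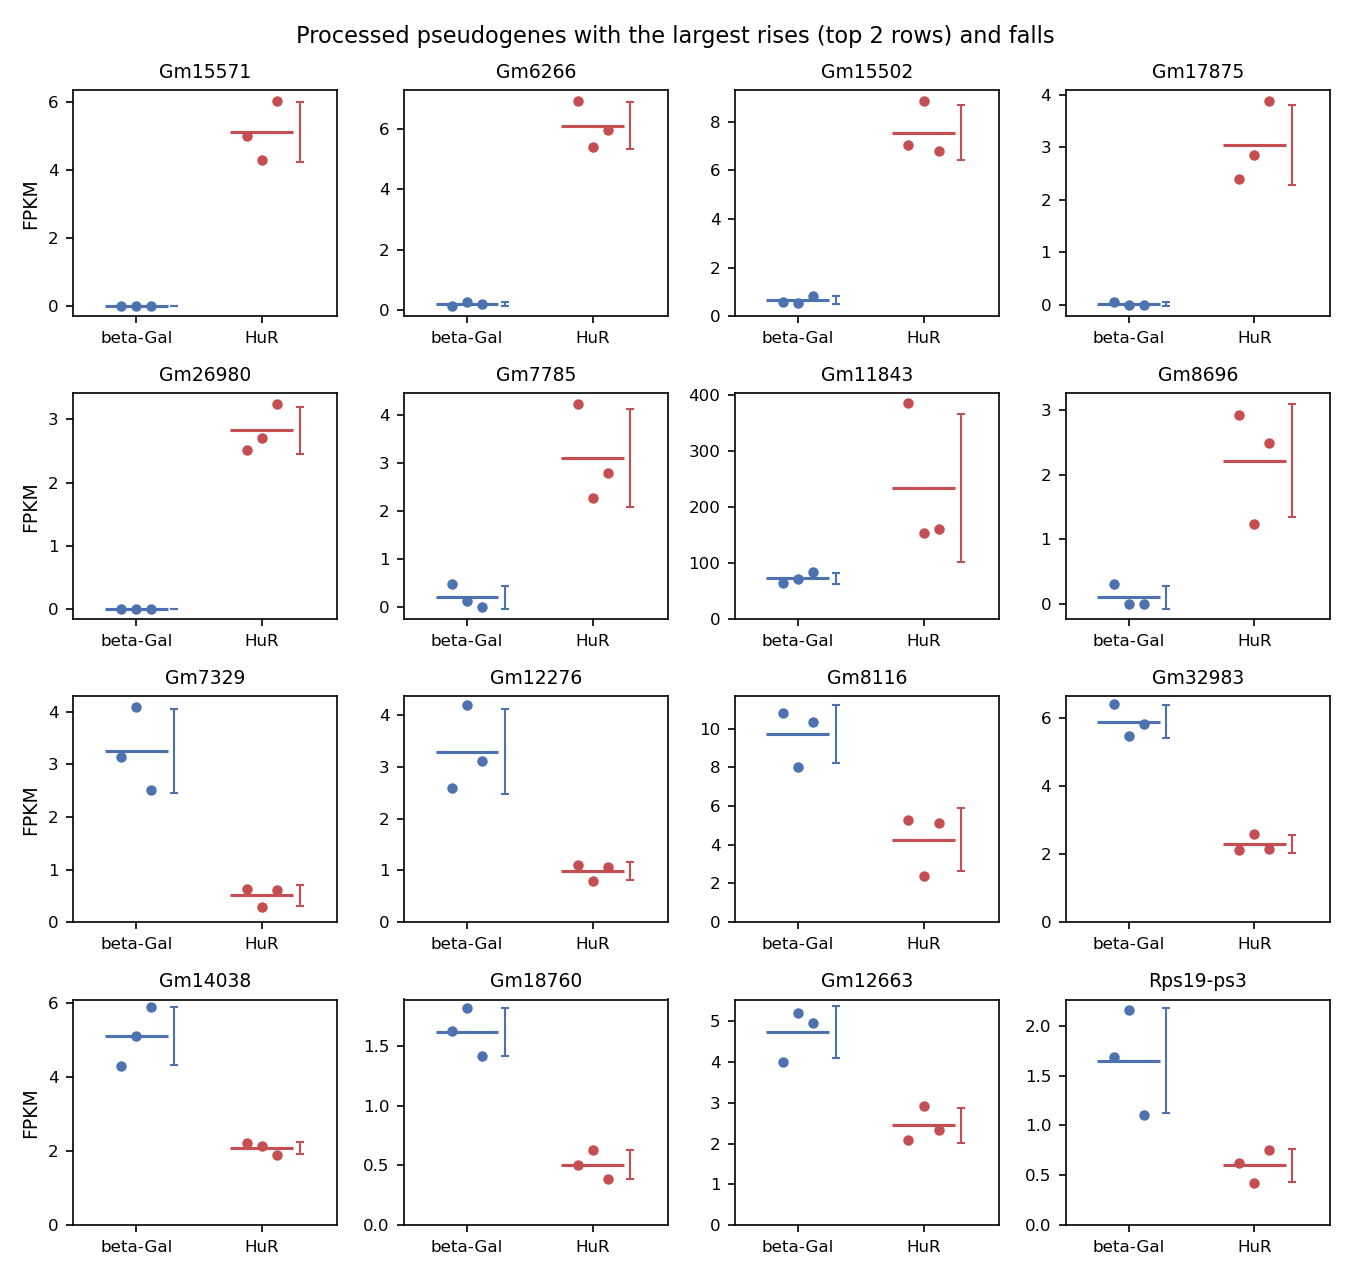
FPKM per library (y axis, linear, own scale in each panel) in the 3 beta-Gal (blue) and 3 HuR (red) libraries for the 8 called members with the largest rises (top 2 rows) and the 8 with the largest falls. Points are libraries, horizontal lines group means and bars ± 1 SD; the groups do not overlap in any panel, and Gm15571 and Gm26980 are at 0 in every beta-Gal library.

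Where a pseudogene and its parent were both called, the direction was the same in most pairs. Of the 388 parents, 376 passed the FPKM filter, and of these 121 were called higher in HuR and 65 lower, together 49.5%, where 45.5% of all tested models and 48.3% of protein-coding genes were called. With TPM scaling the parents split into 66 higher and 106 lower. Among the 80 members called higher, the parent was called higher for 46, lower for 4, not called for 28 and not tested for 1, and 1 member has no parent. Among the 38 called lower, the parent was called lower for 20, higher for 3 and not called for 15. In all, 66 pairs were called in the same direction and 7 in opposite directions. Of the 467 members that were not called, 146 had a parent called higher and 51 one called lower. Within a library, pseudogene and parent can share reads, so the pairs are not independent measurements.

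Likeness to the parent ran with the gap between the changes. Among the 35 members under 90% identity, the median gap between the log2 differences of copy and parent was 0.55, and Pearson's r between them was 0.14 over 32 tested pairs. From 90 to under 95% the gap was 0.34 (r = -0.04, 30 pairs), and from 95 to under 98% it was 0.22 (r = 0.18, 110 pairs). From 98 to under 99% it was 0.15 (r = 0.47, 120 pairs), and at 99% or above 0.17 (r = 0.53, 277 pairs). These correlations run across genes of the same libraries, some with the same parent, and are descriptions. The median level of the members rose along the same bins, from 1.605 FPKM under 90% to 6.97 FPKM at 99% or above, so depth moved with identity, and its part in the gap was not tested. Called changes of 2-fold or more on the log2(FPKM + 1) scale were seen in 8 of the 35 members under 90% and in 2 of the 280 at 99% or above. Of the 8, 6 had passed the FPKM rule through HuR only, which fixed their direction.

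**Figure D3:**
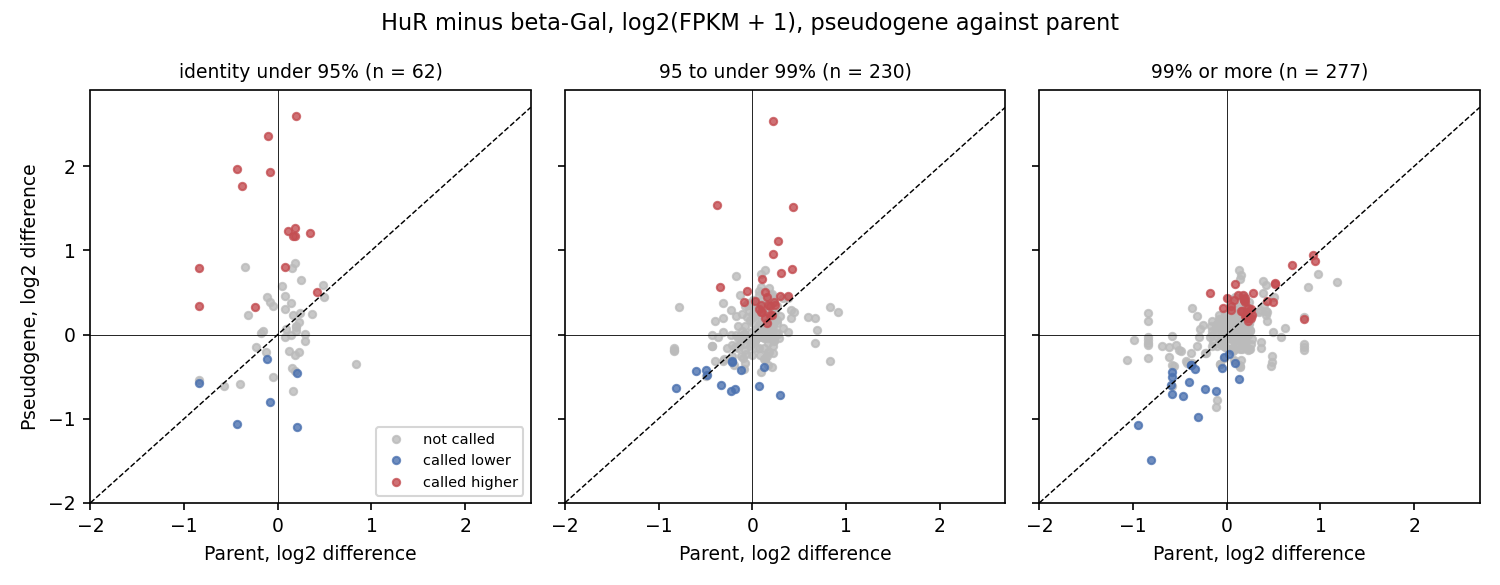
Log2 difference HuR minus beta-Gal on the log2(FPKM + 1) scale for the parent (x axis) and the processed pseudogene (y axis), 1 point per pair with a tested parent, split by identity under 95% (62 pairs), 95 to under 99% (230) and 99% or more (277). Red and blue mark pseudogenes called higher or lower and the dashed line equal differences. The median vertical distance from that line over all pairs of a panel is 0.43 in the first, 0.17 in the second and 0.17 in the third.

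Pairs called in the same direction were found at every level of identity. They were 4 of 32 tested pairs under 90%, 3 of 30 from 90 to under 95% and 11 of 110 from 95 to under 98%. From 98 to under 99% they were 12 of 120, and at 99% or above 36 of 277. The following pairs are examples. Gm10052, identical to Hnrnpa1 over all its 960 bases (chr9:123689233-123690192, minus strand), stood at 13.6, 14.0 and 15.4 FPKM with beta-Gal and 28.9, 27.6 and 24.98 FPKM with HuR. Every HuR library was above every beta-Gal library. It rose by 0.88 and Hnrnpa1 by 0.94. Gm9800 and Gm4617, copies of the prothymosin alpha gene Ptma, stood at 49.7, 52.7 and 54.6 FPKM with beta-Gal and 85.4, 78.3 and 77.7 FPKM with HuR and at 15.6, 21.0 and 15.1 FPKM with beta-Gal and 31.9, 22.8 and 24.99 FPKM with HuR. They rose by 0.61 and 0.60 while Ptma rose by 0.51. Ptges3-ps, a copy of the HSP90 co-chaperone gene Ptges3, stood at 74.2, 81.2 and 82.1 FPKM with beta-Gal and 61.6, 49.97 and 49.3 FPKM with HuR. Both the copy (log2 difference -0.56) and Ptges3 (-0.40) fell. Gm10052, Gm9800 and Gm4617 were named after their values were seen.

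The 7 pairs called in opposite directions had identities from 69.7 to 99.01%. Besides Gm17875, Gm7785, Gm12276 and Rps19-ps3, they were Gm12966 with the splicing factor gene Srsf5, Gm11400 with the elongation factor gene Eef2 and Ppp1r2-ps4 with the phosphatase inhibitor gene Ppp1r2. Gm12966 stood at 13.5, 12.4 and 11.9 FPKM with beta-Gal and 14.7, 19.0 and 21.4 FPKM with HuR and rose by 0.50 (adjusted p = 0.0193), while Srsf5 fell by 0.18 (adjusted p = 0.0125). Gm12966 lost its call with TPM scaling (adjusted p = 0.0659), without the filter (0.0519) and without HuR replicate 2 (0.0579), beta-Gal replicate 2 (0.0598) or beta-Gal replicate 3 (0.0643), over a range of 0.00118 to 0.0659. Gm11400 differed by -0.45 and Eef2 rose by 0.20. Gm17875, Gm7785, Rps19-ps3 and Gm11400 had each met the FPKM rule through 1 group only, which fixed their direction. Ppp1r2-ps4 rose by 0.57 and Ppp1r2 fell by 0.35. The ratio of pseudogene to parent did not overlap between the groups in 117 of 583 pairs. No such share was computed over other pairs of genes. For the FPKM of single models, the groups did not overlap in 58.1% of all tested models. Some of the copies had met the FPKM rule through 1 group only, so the count of 117 is a description. For a single pair the exact two-sided permutation test cannot go below p = 0.1 with 3 libraries a group. For Gm12966 and Srsf5 the log2 ratio was higher by 0.67 in HuR. Every HuR library was above every beta-Gal library for Gm12966 and below every one for Srsf5. Their ratio therefore could not overlap, and the permutation test cannot add to the opposite calls for which this pair was named. For Mpc1-ps and Mpc1 (-0.43) the exact two-sided permutation test gave p = 0.1.

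Grouped by the role of the parent, copies of ribosomal protein genes formed the largest family, with 161 members from 64 parents. Of these, 29 (18.0%) were called higher, against 20.7% of all tested models, and 1 was called lower, against 24.8%. The median log2 difference was 0.16 against -0.01 over all tested models. Of their 64 parents, 34 were called higher and the other 30 were not called, with a median of 0.17. With TPM scaling, 18 of the 161 were higher and 1 lower, where 13.7% of all tested models were higher, and the median was 0.08. Rps16-ps2 stood at 121, 119 and 117 FPKM with beta-Gal and 153, 132 and 139.7 FPKM with HuR, and Rpsa-ps10 at 78.4, 77.1 and 76.8 FPKM with beta-Gal and 99.3, 93.6 and 88.3 FPKM with HuR. In both, every HuR library was above every beta-Gal library, with log2 differences of 0.25 and 0.27. Rpl17-ps3 (0.19), Rps10-ps2 (0.23), Rpl14-ps1 (0.23) and Rpl21-ps15 (0.19) were also called higher, but lost the call with TPM scaling. Rpl38-ps2 (0.24, adjusted p = 0.101) and Rpl31-ps8 (0.07, adjusted p = 0.311) did not pass. The one ribosomal copy called lower was Rps19-ps3, which met the FPKM rule through beta-Gal only.

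The other families were smaller, and their counts stand beside 20.7% of all tested models called higher and 24.8% called lower. Copies of translation factor genes numbered 21, of which 5 (23.8%) were called higher and 1 lower. Copies of chromatin and HMG genes numbered 28, with 6 (21.4%) higher, Gm9800, Gm4617 and Gm26980 among them, and 3 lower. Copies of hnRNP and splicing genes numbered 15, with 4 (26.7%) higher, Gm10052 and Gm12966 among them, and 1 lower. Of 27 copies of respiratory chain genes, 5 (18.5%) were higher and 2 lower. Gm12338, identical over its 192 bases to the cytochrome oxidase gene Cox7c, stood at 68.0, 71.4 and 68.4 FPKM with beta-Gal and 87.9, 80.6 and 84.2 FPKM with HuR. Its groups were apart, and it rose by 0.28. The groups of Cox7c, at 0.15, did not overlap either, but it did not pass (adjusted p = 0.0780). The log2 ratio of Gm12338 to Cox7c was higher by 0.125 in HuR (exact two-sided permutation test, p = 0.2). Of 19 copies of glycolytic genes, 2 were higher and 1 lower, and 14 of the 19 were copies of Gapdh. Of 12 copies of chaperone and prolyl isomerase genes, 1 was lower and 11 were not called. Among 8 copies of actin and tubulin genes, Gm17875, placed here by a match to Actb at 69.7% of aligned bases, was called higher. The other 7 were not called. Of 16 copies of ubiquitin and proteasome genes, 2 were higher and 14 were not called, and of 6 copies of liver secretory and metabolic genes, 1 was higher and 1 lower. The 270 copies of other genes split into 24 higher and 27 lower, and into 12 and 38 with TPM scaling. Of the 2 members without a parent, Gm15760 was called higher and Gm12941 was not called.

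By position, 494 members had no expressed host or neighbour, where expressed means a mean of at least 5 FPKM. A neighbour was sought only upstream on the same strand, within 10 kb. Genes beside a member on the other strand or downstream of it were not searched. Another 34 lay inside an expressed gene on the same strand and 31 inside one on the other strand. A further 22 lay within 10 kb downstream of one on the same strand, and 4 overlapped an exon. Each member was counted once, on an exon first, then inside a gene, then downstream. Gm12276 was therefore counted as inside Ncor1, though Ttc19 ended within 10 kb upstream on its strand. The sources used here do not say whether the libraries keep the strand, so reads of a pseudogene and of a host on either strand cannot be told apart. The counts by position stand beside 20.7% higher and 24.8% lower over all tested models. Members with no host or neighbour were called higher in 63 (12.8%) and lower in 32 cases (6.48%), with a median of 0.08. Members inside an expressed gene had 3 higher (8.82%) and 1 lower on the same strand, and 5 higher (16.1%) and 4 lower on the other. Of the 22 downstream members, 7 (31.8%) were called higher and 1 lower, with a median of 0.42. However, 6 of the 22 had passed the FPKM rule through HuR only, so that count is a description. Of the 15 called members that rose 2-fold or more, 6 were downstream, 4 inside an expressed gene, 1 on an exon and 4 without a host or neighbour.

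Over all 22 downstream members, the correlation (r) between the log2 differences of member and neighbour was 0.47. For members inside an expressed gene, r with the host was -0.14 on the same strand and 0.35 on the other. These values run across genes of the same libraries and are descriptions. The neighbours of the 6 downstream members that rose 2-fold or more did not share 1 direction. Gm6266 begins 3657 bases after Stk38l, a kinase gene that fell by 0.39. Gm17875 begins 5244 bases after Pdcd7, which rose by 1.05. Gm7785 begins 5708 bases after Ube2f, an enzyme gene of the NEDD8 pathway, with a difference of -0.01 (adjusted p = 0.934). Gm8696 begins 1724 bases after the HSP70 gene Hspa1b, which rose by 1.54. Gm45454 begins 6471 bases after Copb1, at -0.10 (adjusted p = 0.180), and Gm4535 begins 3669 bases after the transaldolase gene Taldo1, which rose by 0.23. Gm15571 had no expressed gene within 10 kb upstream on its strand. The nearest gene there with a mean of at least 1 FPKM was Rps29, at 15656 bases. Gm26980 begins 6002 bases after Gm5809, another member, which averaged 2.29 FPKM with beta-Gal and 1.97 FPKM with HuR. Gm7497, a copy of Gapdh inside the collectin gene Colec12 on the same strand, averaged 0.349 ± 0.0936 FPKM with beta-Gal against 1.33 ± 0.0737 FPKM with HuR (SD, n = 3 each), a log2 difference of 0.79, while Colec12 fell by 0.43. Gm7497 met the FPKM rule through HuR only, as did all of these 6 downstream members and Gm15571 and Gm26980.

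**Figure D4:**
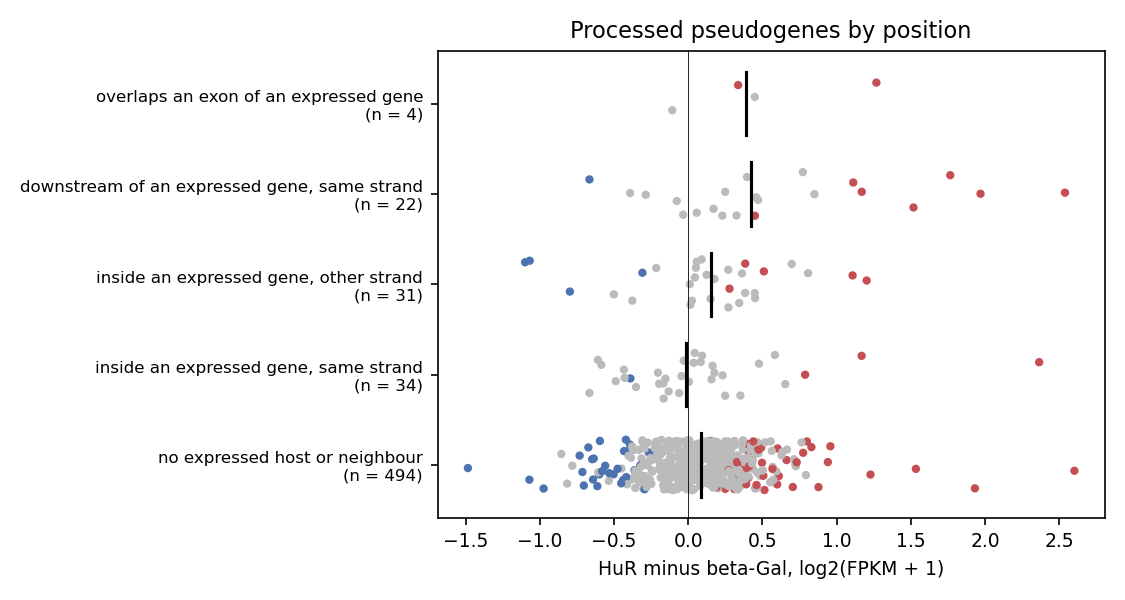
Log2 difference HuR minus beta-Gal on the log2(FPKM + 1) scale (x axis) for the 585 members, 1 point each, in 5 classes of position (y axis, with points spread vertically for sight only). Red and blue mark members called higher or lower, and black bars are class medians. They are at 0.42 in the 22 members downstream of an expressed gene and 0.08 in the 494 with no expressed host or neighbour. Neighbours were sought only upstream on the same strand.

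Some copies with many reads also varied between libraries of 1 group. For several of them the sum over parent and copies varied less in at least 1 group. The 10 copies listed next were picked by reads and spread, not by identity to the parent. Of the 90 members with a mean of 200 reads or more, the 10 with the largest coefficient of variation inside a group were Gm9824, Gm11843, Gm12191, Gm15920, Gm10241, Rpl17-ps10, Hspd1-ps3, Rpl30-ps10, Gm10123 and Gm10443. Gm10123 had 3635, 2340 and 3942 reads with beta-Gal and 3824, 2382 and 3086 with HuR, and Ppia had 5119, 7937 and 5271 reads with beta-Gal and 5158, 7373 and 6044 with HuR. In each group, Gm10123 was lowest in the library where Ppia was highest. After scaling for depth, the coefficient of variation of Gm10123 was 27.0% in beta-Gal and 28.4% in HuR. That of Ppia alone was 23.8% in beta-Gal and 12.4% in HuR. For Ppia summed with its 70 processed pseudogene models it was 6.08% in beta-Gal and 1.44% in HuR. Rpl17-ps10 had 3321, 3542 and 3397 reads with beta-Gal and 1788, 3571 and 3689 with HuR, while Rpl17 had 749, 868 and 687 reads with beta-Gal and 2673, 964 and 787 with HuR. In HuR library 1 the parent was high and the copy low. The sum over Rpl17 and its 103 processed pseudogene models was 6410, 6840 and 6366 reads with beta-Gal and 6848, 7008 and 6893 with HuR, with coefficients of variation of 2.48% in beta-Gal and 4.39% in HuR, against 1.18% in beta-Gal and 32.9% in HuR for Rpl17-ps10 alone. In HuR the sum thus varied less than the copy, and in beta-Gal more. Gm10443 varied by 6.77% in beta-Gal and 21.1% in HuR, and Rps28 with its 16 copies by 8.72% in beta-Gal and 7.76% in HuR.

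Copies with fewer reads behaved alike in part. Gm15920 had 428, 256 and 432 reads with beta-Gal and 481, 340 and 215 with HuR, and its parent Ndufa12, a subunit gene of respiratory complex I, had 354, 581 and 359 reads with beta-Gal and 347, 734 and 802 with HuR. In each group the copy was lowest where the parent was highest, and their sum varied by 1.77% in beta-Gal and 9.06% in HuR. Gm9824 had 312, 205 and 638 reads with beta-Gal and 421, 727 and 494 with HuR, which varied by 58.7% in beta-Gal and 23.3% in HuR. Its parent Pebp1, a gene for a phosphatidylethanolamine-binding protein, alone varied by 9.95% in beta-Gal and 4.46% in HuR. The sum over Pebp1 and its 4 copies varied by 0.638% in beta-Gal and 1.03% in HuR. Gm10241 fell to 127 reads in HuR library 3, where its parent Sumo2 rose to 404 from 84 to 127 reads in the other libraries. The sum over Sumo2 and its 18 processed pseudogene models varied by 1.14% in beta-Gal and 20.5% in HuR. Gm11843 did not follow the pattern of Gm15920 and Gm9824. The sum over Ube2v2 and its 6 copies still varied by 9.49% in beta-Gal and 52.3% in HuR. Hspd1-ps3 rose to 598 reads in HuR library 2, against 354 and 326 in HuR libraries 1 and 3. Its parent Hspd1 had 10639, 11017 and 10226 reads with HuR, before scaling for depth. Gapdh varied more than its 3 copies with the most reads, Gm7336, Gm5559 and Gm12070, with 8178, 4017 and 4899 reads with beta-Gal and 5212, 8310 and 461 with HuR. The 14 Gapdh members did not even out this difference, since the sum over Gapdh and its 225 processed pseudogene models was 9764, 6057 and 6781 reads with beta-Gal and 6913, 10129 and 2132 with HuR.

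**Figure D5:**
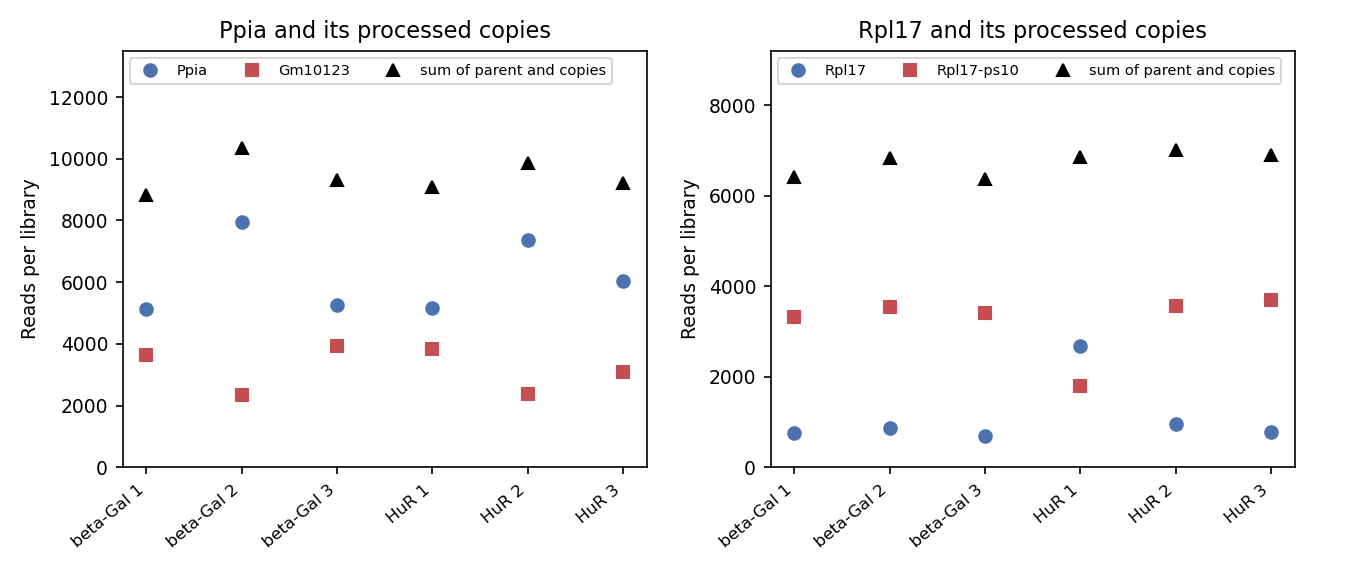
Reads per library (y axis, from 0) in the 3 beta-Gal and 3 HuR libraries (x axis) for Ppia with its copy Gm10123 and for Rpl17 with its copy Rpl17-ps10. Circles are the parent, squares the copy and triangles the sum over the parent and all its processed pseudogene models, which runs from 8831 to 10358 reads for Ppia and from 6366 to 7008 for Rpl17.

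Summed over all 9124 processed pseudogene models, the members and the rest took 2.09 ± 0.0664% of all FPKM with beta-Gal and 2.16 ± 0.0189% with HuR (SD, n = 3 each). The groups overlapped (exact two-sided permutation test, p = 0.4). Of all reads they took 0.4997 ± 0.0126% with beta-Gal and 0.526 ± 0.00187% with HuR, with no overlap (exact permutation test, p = 0.1, the smallest value that 3 libraries against 3 allow). Without the 5 models of highest mean level, their part of all FPKM was 1.73 ± 0.0493% against 1.80 ± 0.0223%.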

How the data were processed

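RNA of 3 beta-Gal and 3 HuR samples, grouped and numbered by the sample titles, was measured by RNA-seq. The deposited table holds FPKM per gene model, made by the authors with gene lengths in the same table. The submitters' processing notes name the build GRCm38.p6 and the tools featureCounts 1.5.0-p3, HISAT2 2.0.5 and DESeq2 1.16.1 without their roles. Strandedness, read length and the handling of reads with several origins are not given in the sources used here. Multiplied by gene length, 100% of the FPKM values came out as whole reads of 1 fixed step per library (tolerance 0.001), with totals of 15413306 to 17108184.

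Models with at least 1 FPKM in 3 or more libraries were tested with limma 3.58.1 (R 4.3.3), with a mean-variance trend, on log2(FPKM + 1), with Benjamini-Hochberg adjustment over 11281 models. This scale understates changes of low genes. The limma code was tested on simulated data. Parents came from the symbol or from BLAST 2.17.0 (at least 50% of the model, e-value 1e-05) against GENCODE M21 protein-coding transcripts. A pseudogene counted as beside a gene when that gene averaged at least 5 FPKM and overlapped it or ended within 10 kb upstream on the same strand.

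The members, the families and the tests were chosen with earlier results of these data known. Named were the 8 called members with the largest rise, the 8 with the largest fall (groups not overlapping) and the 8 with the highest mean. Also named were the 12 highest members whose symbol holds the parent, up to 5 opposite pairs and up to 6 members inside expressed genes by adjusted p, and the 3 on each side of the threshold. Others are named as examples chosen after their values were seen, among them Gm11400, Ppp1r2-ps4, Gm4535, Gm45454 and the members with the largest spread. Alternatives were other pseudocounts, filters, scalings and parent rules, voom on whole reads, a replicate block and leaving out each library. Results that need 1 parent gene are not reported here.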

Additional observations from a re-analysis of the deposited data

How the results depend on the processing

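The counts of 80 higher and 38 lower stayed within 1.5 times with pseudocounts of 0.1 and 0.5 and with quantile normalization (70 and 44). They also did so without a filter (54 and 28). With 1 FPKM required in all 6 libraries they were 59 and 30, over 426 members in place of 585. The share of all tested models that were called moved too. It was 45.5% in the main fit, 20.0% without a filter, 46.9% with 1 FPKM in all 6 libraries and 44.1% with quantile normalization. TPM scaling gave 49 higher and 58 lower, and 66 parents higher and 106 lower in place of 121 and 65. Voom on whole reads called 52 higher and 30 lower, where it called 47.8% of all tested models. Leaving out 1 library gave 61 to 85 members higher and 29 to 47 lower, where 34.8 to 46.8% of all tested models were called. It gave 79 to 124 parents higher and 51 to 81 lower, with 79 reached without beta-Gal replicate 2. With parents taken from symbols only, 116 pairs remained to be compared, of which 12 were called in the same direction and 17 had ratios without overlap. Samples with the same replicate number did not deviate together (correlations of -0.029, 0.00067 and -0.014). With a replicate block 85 members were higher and 41 lower, where 40.3% of all tested models were called. Under the block Rps10-ps2 lost its call (adjusted p = 0.0636) and Rpl38-ps2 gained one (adjusted p = 0.0108).

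Of 36 named members, 28 were called. Under at least 1 alternative in which they were tested, 6 of these lost the call, namely Gm12966, Gm9794, Rpl14-ps1, Rpl17-ps3, Rpl21-ps15 and Rps10-ps2. The filter of 1 FPKM in all 6 libraries kept only 21 of the 36. The named members it removed, most of the largest rises among them, were not tested under it. Gm10123 changed sign with TPM scaling (-0.084) and quantile normalization (-0.12), and ran from -0.22 to 0.25 with 1 library left out. Rpl17-ps10 ran from -0.33 to 0.16, the latter without HuR replicate 1, where it passed the test (adjusted p = 0.0374). With quantile normalization, Gm9794 went to -0.014 and Tpt1-ps3 to -0.0067. Rpl31-ps8 went to -0.034 with TPM scaling and to -0.014 with quantile normalization. With 1 library left out, Gm7308 ran from -0.39 to 0.23 and Gm12250 from -0.16 to 0.021. The causes were not tested. The median member rested on 35.8 reads per library, and its standard error was wider than that of a protein-coding gene (medians of 0.154 and 0.0696).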
